A study of Mus musculus with 12 samples.

Results

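The 10 genes described here are Plin1, Plin2, Plin4, Cidec, Bscl2, Pnpla2, Lipe, Mgll, Abhd5 and G0s2. They act in the coat or formation of the lipid droplet, or in the release of fatty acids from it and the control of that release. The genes were chosen by name, with earlier results of these data known. All 10 of them were measured among the 18295 genes of the array, by 18 of its 41174 gene probes. RNA of differentiated 3T3-L1 cells, mouse preadipocytes that fill with fat once induced and are labelled mature adipocytes, was hybridised on 12 two-colour arrays. Of these, 4 arrays carried TIP60-si cells (small interfering RNA against TIP60, gene Kat5, a histone acetyltransferase), 4 carried USP7-si cells (against Usp7, a deubiquitinase) and 4 carried control-si cells (control RNA). All 3 groups were transfected by Amaxa electroporation after differentiation and lysed 2 days later, and every array held a common reference of undifferentiated 3T3-L1 RNA in its other dye. The cells are a single cultured line, and separate cultures for the replicates of a group are not stated, so the p-values measure the spread between these samples.

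Fat cells store triglyceride in a lipid droplet whose surface is covered by proteins. Perilipin 1 (Plin1) is the main coat protein of the mature adipocyte and holds back lipolysis until it is phosphorylated by protein kinase A, perilipins 2 and 4 (Plin2, Plin4) coat smaller or newly formed droplets, CIDEC promotes the growth of large droplets by passing lipid between them, and seipin (Bscl2) sits where droplets bud from the endoplasmic reticulum. The enzymes adipose triglyceride lipase (Pnpla2), hormone-sensitive lipase (Lipe) and monoglyceride lipase (Mgll) remove the fatty acids in turn, while CGI-58 (Abhd5) activates the first of these lipases and G0S2 inhibits it. Most of these genes are switched on as preadipocytes turn into fat cells.

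The 250 bases before the start of 4 of these genes are shown, 5′ to 3′ on the gene's strand, because Bscl2 and Pnpla2 passed the test in both comparisons of TIP60-si, Cidec stood farthest above the reference and Plin1 passed in none. They are from RefSeq (GRCm38.p6), at chr19:8837217-8837466 on the plus strand, chr7:141454938-141455187 on the plus strand, chr6:113435761-113436010 on the minus strand and chr7:79732777-79733026 on the minus strand. Capitals mark matches to the motifs searched.
Bscl2: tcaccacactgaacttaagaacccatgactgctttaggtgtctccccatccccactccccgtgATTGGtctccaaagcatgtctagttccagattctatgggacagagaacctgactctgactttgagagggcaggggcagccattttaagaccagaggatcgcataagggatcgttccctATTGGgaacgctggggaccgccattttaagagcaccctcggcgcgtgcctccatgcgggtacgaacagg
Pnpla2: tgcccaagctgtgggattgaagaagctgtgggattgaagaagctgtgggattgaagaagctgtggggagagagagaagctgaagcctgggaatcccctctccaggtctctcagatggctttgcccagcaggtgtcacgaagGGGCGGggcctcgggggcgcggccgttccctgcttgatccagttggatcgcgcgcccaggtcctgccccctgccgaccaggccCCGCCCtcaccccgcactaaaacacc
Cidec: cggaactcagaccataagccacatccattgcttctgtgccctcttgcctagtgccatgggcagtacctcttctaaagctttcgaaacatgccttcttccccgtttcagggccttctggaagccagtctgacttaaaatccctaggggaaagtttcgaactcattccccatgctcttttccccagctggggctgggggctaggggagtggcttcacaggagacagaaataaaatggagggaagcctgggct
Plin1: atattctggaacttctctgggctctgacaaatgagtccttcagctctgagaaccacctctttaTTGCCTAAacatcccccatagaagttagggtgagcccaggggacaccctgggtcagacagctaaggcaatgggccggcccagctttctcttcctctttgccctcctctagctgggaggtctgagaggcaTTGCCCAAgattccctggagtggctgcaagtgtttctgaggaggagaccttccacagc

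The capitals are CCAAT (here on the opposite strand, as ATTGG) in Bscl2, at positions -187 and -69 from the start, GGGCGG and its reverse complement in Pnpla2, at -109 and -26, and TTGCNNAA, the core of a C/EBP site, in Plin1, at -187 and -58. The Cidec sequence held none of the motifs. Over both strands and windows of 300 bases, which reach 50 bases past the start, TTGCNNAA occurred in 10.8% of 32851 mouse promoters and in 2 of the 15 promoters listed for these 10 genes (Plin1 and a second Cidec start). The share was 37.4% for CCAAT (3 of the 15), 35.7% for GGGCGG (8 of the 15), 16.3% for the nuclear receptor half-site AGGTCA (3 of the 15) and 7.15% for the E-box CACGTG (3 of the 15). The motifs do not overlap in the sequences shown, and a match describes the letters, not a bound site.

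Per array, the sample dye had a median raw signal of 124 to 196 over a median local background of 39.5 to 44. The targeted transcripts were lower where the labels place the knockdown: Kat5 in TIP60-si fell to 50.03% of control-si (limma adjusted p = 1.167e-05) and Usp7 in USP7-si to 32.04% (adjusted p = 1.16e-05), with no overlap of arrays in either. The array of USP7-si replicate 4 stood apart. Its median absolute log2 ratio over all probes was 0.0554, and that of the other 11 arrays lay between 0.109 and 0.148. The SD of its log2 ratios was closer to the others, at 0.339 against 0.392 to 0.459. The groups also differed in the median absolute log2 ratio, from 0.135 to 0.148 on the TIP60-si arrays and from 0.117 to 0.132 on the control-si arrays, with no overlap. Scaling to equal spread sets this median equal, not the SD. It multiplied the ratios of USP7-si replicate 4 by 2.14, those of TIP60-si by 0.799 to 0.878 and those of control-si by 0.896 to 1.01. The factor of 2.14 was too large for genes with high ratios. Unscaled, the median of the 8 mature adipocyte markers was 3.423 on USP7-si replicate 4, against 3.596 to 3.717 on the other USP7-si arrays. The median of the 10 genes described here was 1.506, against 1.836 to 1.96. Multiplying by 2.14 puts replicate 4 far above those arrays, whose own factors were 0.965 to 1.09. A factor set from genes with high ratios was not tested. The cells carried transcripts of mature adipocytes, measured by 8 markers (Adipoq, Cfd, Retn, Fabp4, Cebpa, Pparg, Slc2a4 and Lpl), whose median log2 ratio over the reference per array was 3.52 to 3.69 in TIP60-si, 3.42 to 3.72 in USP7-si and 3.43 to 3.93 in control-si. Of these markers 0 of 8 passed the test in any comparison, and an unadjusted p below 0.05 was reached by 3 of 8 in TIP60-si versus USP7-si, where 20.7% of all probes reached it, and by 0 of 8 in the others. The medians of 10 preadipocyte and fibroblast markers ran from -0.72 to -0.45 in TIP60-si, -0.75 to -0.51 in USP7-si and -0.72 to -0.49 in control-si, and those of 5 macrophage markers from -0.02 to 0.19, 0.03 to 0.25 and 0.09 to 0.16 in the same order of groups. The preadipocyte markers were not all below the reference: Ly6a averaged 2.09, 1.99 and 2.10 in that order, and Thy1 0.78, 0.53 and 0.52. Cd34 lay near 0, from -0.12 to -0.04, and the rest of that list averaged below 0 in every group. Of the preadipocyte markers, Thy1 was higher in TIP60-si than in control-si (0.26, adjusted p = 0.0228) and than in USP7-si (0.25, adjusted p = 0.0196), but the differences were 0.15 (adjusted p = 0.415) and 0.04 (adjusted p = 0.839) with arrays scaled to equal spread, 0.06 and 0.03 with median centring, and the second missed the threshold without USP7-si replicate 4 (adjusted p = 0.0677). Col1a1 was lower in TIP60-si than in USP7-si (-0.48, adjusted p = 0.0336, but 0.08 with arrays scaled to equal spread). Of the macrophage markers 0 of 5 passed in any comparison, and Adgre1, Ptprc and Itgam had mean ratios between -0.19 and 0.13 in every group, near the reference. Cd68 averaged 0.32 in TIP60-si, 0.28 in USP7-si and 0.26 in control-si, and Csf1r averaged 1.08, 0.89 and 0.72 in the same groups. The part of these markers in the results below was not tested.

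All values below are log2 ratios of sample over reference, corrected for the fitted dye effect, and each gene is represented by its brightest probe unless another is named. All 10 genes stood above the undifferentiated reference in every group. In TIP60-si 8 of 10 had a mean log2 ratio above 1, which 2.24% of all probes had. In USP7-si it was 7 of 10, against 1.66% of all probes, and in control-si 7 of 10, against 1.99%. The median over the 10 genes was 2.06 in TIP60-si, 1.81 in USP7-si and 1.89 in control-si, and the median of all probes lay between -0.00089 and 0.00102. These ratios are descriptions of the groups and were not tested, and in RNA of whole cultures a larger share of differentiated cells cannot be told apart from more RNA per cell.

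Of the coat genes, Cidec stood highest over the reference, at 5.37 ± 0.14 in TIP60-si, 4.83 ± 0.22 in USP7-si and 5.05 ± 0.21 in control-si (SD, n = 4 each), the last of which is 33.1-fold. Plin1 followed at 2.81 ± 0.22, 2.56 ± 0.42 and 2.72 ± 0.23 in the same groups, 6.58-fold in control-si. The ratios of Plin2 and Plin4 were smaller, 2.87-fold and 2.81-fold in control-si, and that of Bscl2 was the smallest of the 10, at 1.35-fold. Among the lipases, Pnpla2 was 18.5-fold and Lipe 6.33-fold above the reference in control-si, while Mgll was 1.92-fold above it. Their second bright probes gave 9.31-fold for Pnpla2, 5.27-fold for Lipe and 2.78-fold for Mgll. The 2 regulators of Pnpla2 also differed, with the inhibitor G0s2 at 4.76-fold and the activator Abhd5 at 1.71-fold, or 3.31-fold by its second probe. Ratios say how far a transcript lay above the undifferentiated cells and not which of these transcripts was most abundant. Median raw signals in the reference dye were lowest for Plin1 (130), Mgll (178), G0s2 (197), Bscl2 (200) and Lipe (225). The offset of 50 in the background correction pulls ratios towards 0 more where a signal is low, so the order of these folds is approximate. Raw signals of the sample dye were far above background for 9 of the 10 brightest probes, from 343 for Mgll to 15780 for Pnpla2, and 296 for Bscl2.

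**Figure D1:**
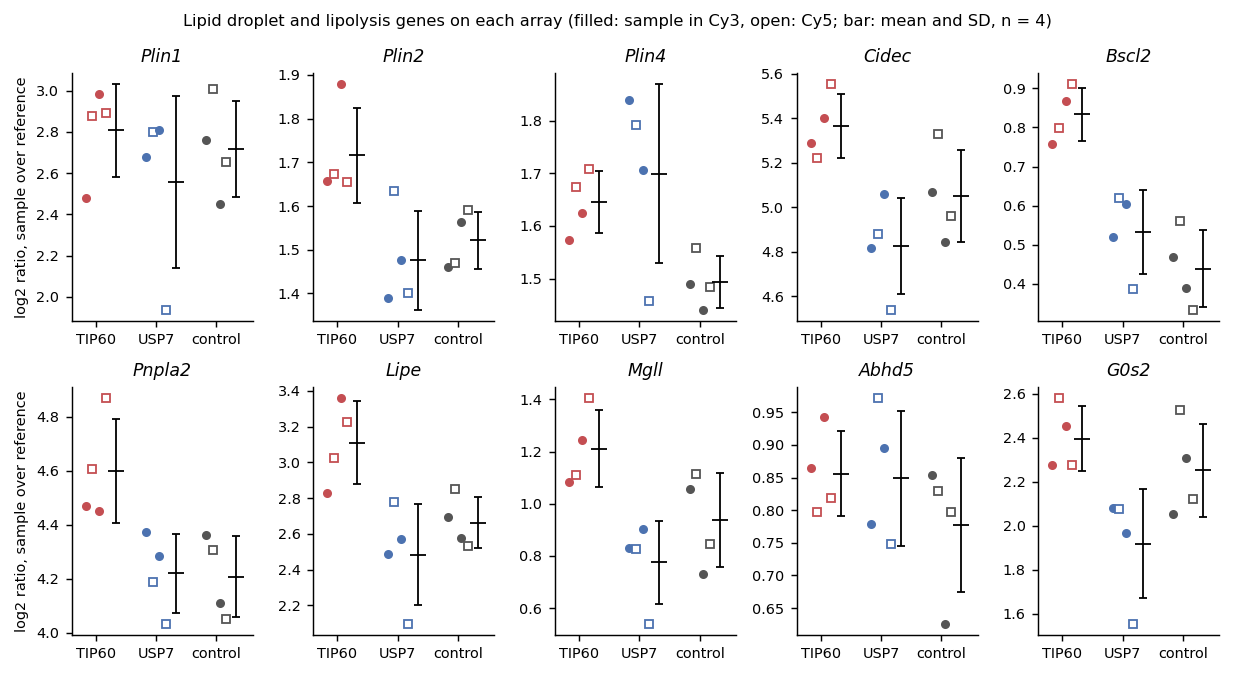
Log2 ratio over the reference (y axis, own scale in each panel) of each of the 10 genes on every array, by group from TIP60-si through USP7-si to control-si. Filled points have the sample in Cy3 and open points in Cy5, and bars give the mean and SD of 4 arrays. The 4 TIP60-si arrays of Bscl2 lie between 0.76 and 0.91, all above the USP7-si and control-si arrays, and USP7-si replicate 4 is the lowest USP7-si array of every gene but Plin2.

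The first comparison set TIP60-si against control-si, to ask whether silencing TIP60 in formed adipocytes moved the droplet and lipolysis transcripts. Bscl2 and Pnpla2 rose, so that 2 of 10 genes passed the test as higher and 0 of 10 as lower, where 1.25% of all probes were called higher, 2.53% lower and 3.78% in all (limma, adjusted p below 0.05 over 41174 probes). The difference was above 0 for 10 of 10 genes, as for 49.4% of all probes, with a median of 0.23 (all probes -0.0013), but with arrays scaled to equal spread only 3 of 10 were above 0 and the median was -0.04. The calls over all probes split into 515 higher and 1041 lower, and into 4 higher and 22 lower with median centring in place of loess.

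Bscl2 encodes seipin. It had log2 ratios of 0.76, 0.80, 0.87 and 0.91 on the TIP60-si arrays, against 0.47, 0.56, 0.39 and 0.33 on the control-si arrays. All TIP60-si arrays lay above all control-si arrays. The difference was 0.40 (SE 0.06), 1.32-fold, with an adjusted p of 0.00477. It was 0.38 between the arrays with the sample in Cy3 and 0.41 between those in Cy5. Bscl2 stayed positive under 24 of 24 other settings and passed the test under 21 of them, with the exceptions of median centring (adjusted p = 0.399), equal spread over all arrays (adjusted p = 0.0796) and the mean over its probes (adjusted p = 0.051). Several of these settings, such as leaving out a USP7-si array or the dye term, change only the error and cannot move the difference. With equal spread and USP7-si replicate 4 left out of the fit, the Bscl2 difference was 0.31 (adjusted p = 0.00798).

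Pnpla2, the lipase that starts triglyceride breakdown, measured 4.47, 4.61, 4.45 and 4.87 on the TIP60-si arrays, against 4.36, 4.31, 4.11 and 4.05 on the control-si arrays. The groups did not overlap, though the lowest TIP60-si array and the highest control-si array were close. The difference was 0.39 (SE 0.10), 1.31-fold, with an adjusted p of 0.0468. It was 0.22 between arrays with the sample in Cy3 and 0.56 between those in Cy5, passed the test under 7 of 24 other settings, and was -0.16 with arrays scaled to equal spread and -0.17 with that scaling and without USP7-si replicate 4. The call ended when any array other than control-si replicate 1 or USP7-si replicate 4 was left out, with an adjusted p of 0.033 to 0.15 over the 12 such fits and a difference of 0.29 to 0.45. The second Pnpla2 probe gave 0.44 (SE 0.18) with overlapping arrays and an adjusted p of 0.221.

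The downstream lipases did not pass the test. Lipe, which cleaves diglyceride, measured 2.83, 3.03, 3.36 and 3.23 on the TIP60-si arrays, against 2.69, 2.85, 2.58 and 2.53 on the control-si arrays. One TIP60-si array, replicate 1, lay below the highest control-si array, and the difference was 0.45 (SE 0.13, adjusted p = 0.0876). Lipe passed under 5 of 24 other settings, among them the authors' value table (0.44, adjusted p = 0.0198) and the fit without USP7-si replicate 4 (adjusted p = 0.0277), an array that enters only the shared error and dye terms. Its difference was 0.07 with arrays scaled to equal spread (adjusted p = 0.984) and 0.07 with that scaling and without that array (adjusted p = 0.784). Mgll, which finishes the breakdown, differed by 0.27 (SE 0.10, adjusted p = 0.161).

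Of the coat genes, Plin2 had 1.66, 1.67, 1.88 and 1.65 on the TIP60-si arrays, against 1.46, 1.47, 1.56 and 1.59 on the control-si arrays. These groups did not overlap, yet the difference of 0.19 (SE 0.07) had an adjusted p of 0.136. Plin4 likewise did not overlap, with 0.15 (SE 0.07, adjusted p = 0.299). In all, 4 of 10 genes had every TIP60-si array above every control-si array (Plin2, Plin4, Bscl2 and Pnpla2), where 5% of all probes did, and 0 of 10 lay wholly below, where 6.47% of all probes did. Cidec differed by 0.32 (SE 0.12, adjusted p = 0.163). Plin1, the coat protein most typical of the fat cell, measured 2.48, 2.88, 2.98 and 2.89 on the TIP60-si arrays, against 2.76, 3.01, 2.45 and 2.65 on the control-si arrays. Its groups overlapped widely, and the difference was 0.09 with a 95% interval from -0.29 to 0.47.

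The 2 regulators of Pnpla2 did not pass either. The inhibitor G0s2 differed by 0.14 with an interval from -0.12 to 0.41, and the activator Abhd5 by 0.08 with an interval from -0.06 to 0.22. An unadjusted p below 0.05 was reached by 6 of 10 genes and by 17.2% of all probes.

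The second comparison set USP7-si against control-si. None of the 10 genes passed the test, and 35 of 41174 probes did, 0.085% of them, 13 higher (0.0316%) and 22 lower (0.0534%, limma, adjusted over all probes). The split was 2 higher and 1 lower with median centring, 3 and 1 with arrays scaled to equal spread, and 8 and 7 with that scaling and without USP7-si replicate 4. An unadjusted p below 0.05 was found for 2 of 10 genes, Plin4 at 0.21 (SE 0.07, adjusted p = 0.594) and G0s2 at -0.33 (SE 0.12, adjusted p = 0.648), and for 6.27% of all probes. The difference was above 0 for 4 of 10 genes, against 50.6% of all probes, with a median of -0.10 that was 0.03 without USP7-si replicate 4, 0.44 with arrays scaled to equal spread and 0.14 with that scaling and without that array. Over the 10 genes the 95% intervals reached from -0.60 to 0.36. The interval of Bscl2 ran from -0.04 to 0.23.

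Plin4 measured 1.84, 1.79, 1.71 and 1.46 on the USP7-si arrays, against 1.49, 1.56, 1.44 and 1.48 on the control-si arrays. Only replicate 4 of USP7-si fell within the control-si range, and without it the difference was 0.30 with an adjusted p of 0.0955. G0s2 measured 2.08, 2.07, 1.97 and 1.56 on the USP7-si arrays, against 2.05, 2.53, 2.31 and 2.12 on the control-si arrays. Here replicates 1 and 2 of USP7-si reached into the control-si range, and without replicate 4 the difference was -0.20 (adjusted p = 0.967). No gene had groups free of overlap, which 2.27% of all probes showed as higher and 2.42% as lower. Of the lipases, Pnpla2 differed by 0.01 (interval -0.20 to 0.23), Lipe by -0.18 (-0.47 to 0.11) and Mgll by -0.16 (-0.38 to 0.05). The second Pnpla2 probe gave -0.29 (-0.68 to 0.11). With arrays scaled to equal spread the values of the brightest probes were 1.33 for Pnpla2, 0.52 for Lipe and 0.04 for Mgll, and 10 of 10 genes were above 0, none of them past the test. With that scaling and without USP7-si replicate 4 they were 0.30, 0.09 and -0.03.

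**Figure D2:**
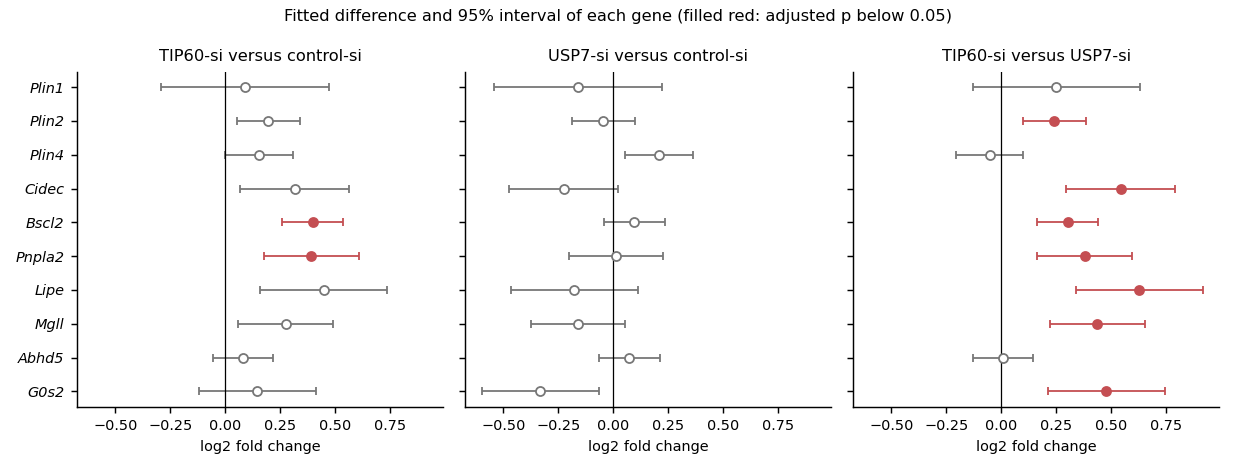
Fitted log2 fold change (x axis) with its 95% interval for the 10 genes in the 3 comparisons, with genes that passed the test filled in red. Bscl2 and Pnpla2 passed in TIP60-si versus control-si, none in USP7-si versus control-si and 7 in TIP60-si versus USP7-si, and with arrays scaled to equal spread most of these differences changed sign, with 2 of 10 genes above 0 in the last comparison.

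The third comparison set the 2 knockdowns against each other. It shares the TIP60-si arrays with the first comparison and the USP7-si arrays with the second, and those 2 share the control-si arrays. Here 7 of 10 genes passed the test as higher in TIP60-si and 0 of 10 as lower, where 2.97% of all probes were called higher, 4.4% lower and 7.38% in all, but the sign of 5 of the 7 (Plin2, Cidec, Pnpla2, Lipe and G0s2) turned when arrays were scaled to equal spread. All 7 had every TIP60-si array above every USP7-si array, which held for 6.77% of all probes, and 0 of 10 lay wholly below, which held for 8.03%. The median of the 10 genes was 0.34 (all probes -0.0027). Without USP7-si replicate 4 it was 0.28 and 3 of 10 genes passed as higher, namely Lipe, Cidec and Bscl2. In that fit 678 of 41174 probes were called higher and 1217 lower. With equal spread and without that array the median was -0.13 and the 2 genes that passed, Plin1 (-0.48, adjusted p = 0.0352) and Plin4 (-0.45, adjusted p = 0.0117), were lower in TIP60-si. Over all probes the calls split into 1224 higher and 1813 lower unscaled, into 342 higher and 930 lower under that setting, into 59 higher and 251 lower with equal spread over all arrays, and into 326 higher and 758 lower with plain background subtraction.

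The largest difference was that of Lipe. It measured 2.83, 3.03, 3.36 and 3.23 in TIP60-si, against 2.49, 2.78, 2.57 and 2.10 in USP7-si, so that the lowest TIP60-si array lay just above the highest USP7-si array. The difference was 0.63 (SE 0.13), 1.54-fold, with an adjusted p of 0.0129, and it was 0.48 (adjusted p = 0.0275) without USP7-si replicate 4. With arrays scaled to equal spread it was -0.45, and -0.02 with that scaling and without that array. Its second bright probe gave 0.56 (adjusted p = 0.0161) with arrays that overlapped.

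Cidec measured 5.29, 5.22, 5.40 and 5.55 in TIP60-si, against 4.82, 4.88, 5.06 and 4.54 in USP7-si. A clear gap separated the groups, and the difference was 0.54 (SE 0.12), 1.46-fold, with an adjusted p of 0.0126. Without USP7-si replicate 4 it was 0.43 (adjusted p = 0.0333). With arrays scaled to equal spread it was -1.63, and -0.45 with that scaling and without that array.

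Bscl2 measured 0.52, 0.62, 0.60 and 0.39 in USP7-si, below all TIP60-si arrays given above. The difference was 0.30 (SE 0.06, adjusted p = 0.0127), and it was 0.25 (adjusted p = 0.0401) without USP7-si replicate 4. It passed under 20 of 24 other settings, and was 0.07 (adjusted p = 0.691) with arrays scaled to equal spread and 0.12 (adjusted p = 0.346) with that scaling and without that array. Pnpla2 measured 4.37, 4.19, 4.29 and 4.03 in USP7-si, again below all TIP60-si arrays. Its difference of 0.38 (SE 0.10) had an adjusted p of 0.0352, which became 0.108 without USP7-si replicate 4, 0.0698 without USP7-si replicate 3, 0.0657 without USP7-si replicate 2, 0.0792 without TIP60-si replicate 4 and 0.0703 without TIP60-si replicate 2. With arrays scaled to equal spread it was -1.49, and -0.47 with that scaling and without USP7-si replicate 4.

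Mgll, G0s2 and Plin2 completed the 7. Mgll measured 1.08, 1.11, 1.25 and 1.40 in TIP60-si, against 0.83, 0.83, 0.90 and 0.54 in USP7-si, a difference of 0.44 (SE 0.10, adjusted p = 0.0179). For G0s2 the TIP60-si arrays gave 2.27, 2.58, 2.45 and 2.28, all above the USP7-si values listed before, with a difference of 0.48 (SE 0.12, adjusted p = 0.0321). Plin2 differed by 0.24 (SE 0.07, adjusted p = 0.045). With arrays scaled to equal spread the differences were 0.09 for Mgll, -0.33 for G0s2 and -0.43 for Plin2, none past the test. Without USP7-si replicate 4 the adjusted p was 0.0514 for Mgll, 0.0741 for G0s2 and 0.13 for Plin2, so that each missed the threshold. G0s2 also missed it without USP7-si replicate 3, TIP60-si replicate 2 or TIP60-si replicate 3 (adjusted p 0.0733 to 0.0918), and Mgll without TIP60-si replicate 3 (0.0555). Plin2 kept the call only when TIP60-si replicate 4, USP7-si replicate 2 or control-si replicate 1 was the array left out.

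Plin1, Plin4 and Abhd5 did not pass. Plin1 measured 2.68, 2.80, 2.81 and 1.94 in USP7-si, where replicate 4 was far below the others. Its difference was 0.25 (interval -0.13 to 0.63) and 0.02 without that array. Plin4 gave -0.05 (-0.21 to 0.10) and Abhd5 0.01 (-0.13 to 0.15). The second Abhd5 probe gave 0.20 (0.05 to 0.36, adjusted p = 0.114) with overlapping arrays, so the 2 probes differed here. The median of the mature adipocyte markers in this comparison was 0.15 with 7 of 8 above 0, and the part of this in the result was not tested.

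**Figure D3:**
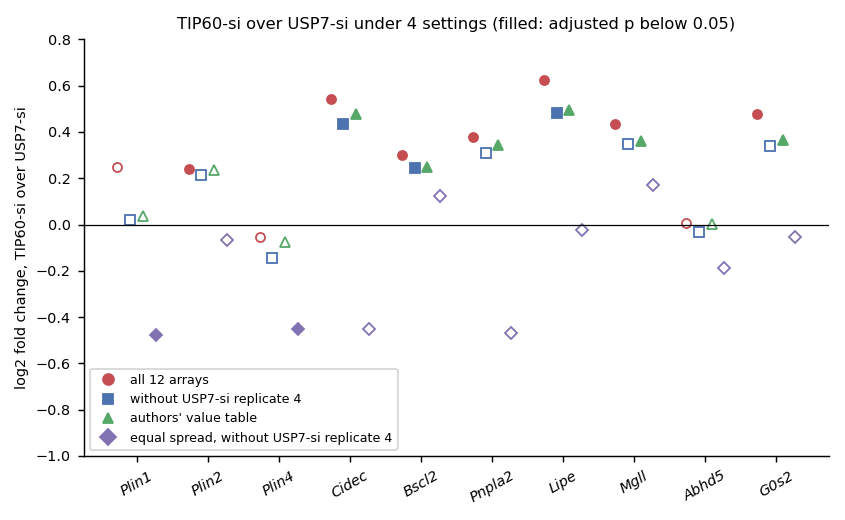
Log2 fold change of TIP60-si over USP7-si (y axis) for the 10 genes, from all 12 arrays, without USP7-si replicate 4, from the authors' value table, and with equal spread and without USP7-si replicate 4; filled symbols passed the test. Lipe, Cidec and Bscl2 stay filled in the first 3, and under the last 8 of 10 genes lie below 0.

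Genes with several probes allowed a check within the arrays. Each of Bscl2, Lipe and Mgll had at least 1 probe close to background: the second Bscl2 probe was above background in the sample dye on 9 of 12 arrays, the dimmest Lipe probe on 8 and the dimmer Mgll pair on 7 each. These 4 probes had raw signals of 56.9 to 77.9 and differences between TIP60-si and control-si from -0.05 to 0.07, so the rise of Bscl2 rests on 1 probe. The offset added in the background correction pulls the ratios of such dim probes towards 0. In USP7-si versus control-si the bright pair of Pnpla2 gave 0.01 and -0.29 and that of Abhd5 0.07 and -0.07. Lipe gave -0.18 and -0.23 there, and Mgll -0.16 and -0.13. Between TIP60-si and control-si each bright pair ran the same way. Mgll gave 0.27 and 0.52 (SE 0.10 and 0.16), the second with every TIP60-si array above every control-si array and an adjusted p of 0.0909. Abhd5 gave 0.08 and 0.13, though its probes stood 1.71-fold and 3.31-fold above the reference in control-si. In TIP60-si versus USP7-si 10 of the 18 probes passed the test, against 7.38% of all probes, and with arrays scaled to equal spread 0 of the 10 genes passed by their brightest probe.

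**Figure D4:**
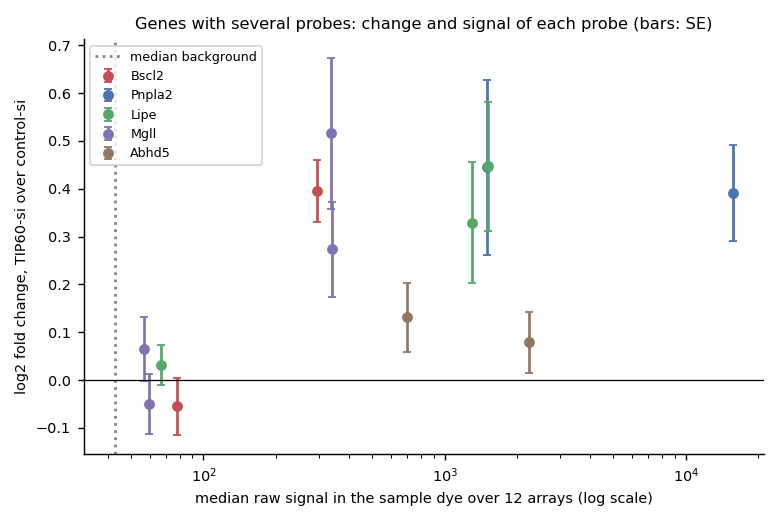
Log2 fold change of TIP60-si over control-si (y axis, bars SE) against the median raw signal in the sample dye (x axis, log scale) for the 13 probes of the 5 genes with several probes. The 4 probes nearest the dotted median background lie between -0.05 and 0.07, and the 9 brighter ones between 0.08 and 0.52 without scaling of the arrays.

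Other genes of the droplet were taken as a list of 12 (further perilipins and CIDE proteins, fat storage proteins and droplet-bound enzymes), of which 11 were measured. In TIP60-si versus control-si 0 of 11 passed as higher and 2 of 11 as lower, against 1.25% and 2.53% of all probes. An unadjusted p below 0.05 was reached by 5 of 11 and by 17.2% of all probes. Rab18, a small GTPase found on droplets, averaged -0.75 ± 0.06 in TIP60-si and -0.52 ± 0.09 in control-si (SD, n = 4 each), a difference of -0.23 (SE 0.06, adjusted p = 0.0343). Hsd17b11, a droplet-associated dehydrogenase, averaged -0.08 ± 0.04 in TIP60-si and 0.12 ± 0.06 in control-si, a difference of -0.20 (SE 0.05, adjusted p = 0.032). With arrays scaled to equal spread both stayed negative and neither passed. The list's median was -0.03. In USP7-si versus control-si 0 of 11 passed, where 0.085% of all probes did, with a median of -0.03. There the unadjusted p was below 0.05 for 3 of 11 and for 6.27% of all probes.

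Between the knockdowns Plin3 and Fitm2 passed, 1 of 11 lower and 1 of 11 higher, against 4.4% and 2.97% of all probes. An unadjusted p below 0.05 was reached by 4 of 11 and by 20.7% of all probes. Plin3, a perilipin of small droplets, averaged -0.34 ± 0.07 in TIP60-si and -0.03 ± 0.08 in USP7-si, a difference of -0.31 (SE 0.05, adjusted p = 0.00285). It also passed with arrays scaled to equal spread (-0.25, adjusted p = 0.037) and with that scaling and without USP7-si replicate 4 (-0.26, adjusted p = 0.0244), where none of the 7 genes passed as higher. With median centring Plin3 did not pass (-0.50, adjusted p = 0.32). Fitm2, which partitions fat into droplets, averaged 1.81 ± 0.16 in TIP60-si and 1.33 ± 0.13 in USP7-si, a difference of 0.48 (SE 0.08, adjusted p = 0.00408) that was -0.13 with arrays scaled to equal spread.

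The control of lipolysis was taken as a list of 24 genes, from G proteins and adenylate cyclases to protein kinase A subunits, of which 18 were analysed here. Of the 18, 0 passed in any of the 3 comparisons, where 3.78%, 0.085% and 7.38% of all probes did. An unadjusted p below 0.05 was reached by 2 of 18 with TIP60-si against control-si, 0 of 18 with USP7-si against control-si and 2 of 18 between the knockdowns. The shares of all probes were 17.2%, 6.27% and 20.7%. The medians were -0.04, 0.00052 and -0.05 in that order. The smallest p-values belonged to Prkar1a, a regulatory subunit of protein kinase A (-0.18 in TIP60-si versus USP7-si, adjusted p = 0.079), Gnai3, an inhibitory G protein subunit (-0.24 in TIP60-si versus control-si, adjusted p = 0.126), and Prkar2b, the regulatory subunit typical of fat (-0.15 in TIP60-si versus control-si, adjusted p = 0.223). With equal spread and without USP7-si replicate 4, Prkar2b (-0.29, adjusted p = 0.0384) and Hcar2, a receptor that restrains lipolysis (-0.34, adjusted p = 0.0245), passed as lower in TIP60-si than in USP7-si.

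Likeness of pattern over the 12 arrays was measured as the root mean square difference of mean-centred log2 ratios among probes that vary at least as much. The 5 genes most like Plin1, of 300 candidates, were Nav3 (0.09), Cd1d1, Vsir, Pdzd2 and Strip2 (0.11), and those most like Pnpla2, of 653, were Zfc3h1 (0.12), Agpat2, Bcat2, Adh1 and Syn2 (0.13). The SD of Plin1 over the arrays was 0.30 and that of Pnpla2 0.24. The arrays share their normalization and the common reference, and the likeness is a description of these 12 arrays.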

How the data were processed

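RNA of TIP60-si, USP7-si and control-si adipocytes was measured on 12 two-colour arrays, 4 per group, 2 in each dye orientation per group. Per the labels' protocols, the authors scanned the arrays, extracted features with Imagene (version not given in the sources used here) and normalized gene probes by print-tip loess, with no background correction. Linear spot and background intensity stand in the deposited scanner files, and the deposited normalized files give intensity after the authors' loess. The deposited value table holds log2 ratios, which equal sample over reference in the normalized files to within 5e-06, with column medians from -0.00915 to 0.00526. The scanner files name no dye: channel 1 was taken as Cy5 from its match to the normalized files (r 0.746 to 0.994).

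Intensities were corrected with normexp (offset 50) and loess in limma 3.58.1 (R 4.3.3), with control spots at weight 0 and no scaling between arrays. The model held group and dye orientation over all 12 arrays (lmFit, eBayes). P-values were two-sided and Benjamini-Hochberg adjusted over 41174 probes, with a threshold of 0.05. Precision is limited by the number of arrays. The fit was tested on simulated data. Of the gene probes, 34186 had 1 symbol and 6988 none, and 3726 symbols were updated through RefSeq synonyms. Members and lists were chosen with earlier results of these data known. Outside the 10 genes, those named are the 2 targets, list genes that passed (otherwise the 3 with the smallest p) and the 5 most like Plin1 and Pnpla2; Hcar2 and the markers listed were named outside that rule, Hcar2 after its values were seen. Alternatives were other background corrections, median centring, equal spread, the value table, dim probes left out, no dye term, the replicate block, array weights, 2 groups only, means over probes and leaving out each array.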

Additional observations from a re-analysis of the deposited data

Results flagged for a closer look

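Of 54 groups of 4 arrays tested for a far value, 3 held one, and chance alone gives about 1 in 20. Plin1 in USP7-si was lowest on replicate 4 at 1.94, with the other arrays between 2.68 and 2.81. Plin2 in TIP60-si was highest on replicate 3 at 1.88, with the others between 1.65 and 1.67. The dimmest Lipe probe in control-si was highest on replicate 4 at 0.04327, with the others between 0.01463 and 0.01765, all close to 0.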

How the results depend on the processing

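Leaving out each of the 12 arrays in turn gave 736 to 1797 called probes for TIP60-si versus control-si (1556 with all arrays), 14 to 49 for USP7-si versus control-si (35) and 1500 to 3353 for TIP60-si versus USP7-si (3037), and 1 to 3, 0 and 3 to 7 called genes of the 10 in the same order. For the third comparison 4 genes passed without TIP60-si replicate 2, without TIP60-si replicate 3 or without USP7-si replicate 3, and 3 without USP7-si replicate 4. The 9 arrays whose removal left 1 called gene in the first comparison each ended the call of Pnpla2 and kept that of Bscl2, and without TIP60-si replicate 1 the called pair was Lipe and Bscl2.

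In the order of those 3 comparisons, the called probes and the called genes of the 10 were as follows. Plain background subtraction gave 640, 12 and 1084 probes, and 1, 0 and 4 genes. Median centring gave 26, 3 and 41 probes and 0 genes in each, with a median of the 10 genes of 0.1042 in TIP60-si versus control-si. Equal spread gave 97, 4 and 310 probes and 0 genes in each, with medians of -0.03728, 0.4427 and -0.4404. Equal spread with USP7-si replicate 4 left out, chosen after seeing the data, gave 1127, 15 and 1272 probes, 1, 0 and 2 genes, and medians of -0.03995, 0.1358 and -0.127. Without the dye term there were 602, 18 and 1373 probes and 1, 0 and 4 genes. Array weights gave 77 probes for USP7-si versus control-si. Averaging the probes of each gene left 0 genes for TIP60-si versus control-si (Bscl2 0.1706, adjusted p = 0.051, and Pnpla2 0.4177, adjusted p = 0.0982). Pnpla2 in TIP60-si versus control-si was -0.1573 with equal spread and -0.1685 with that scaling and USP7-si replicate 4 left out. In TIP60-si versus USP7-si equal spread gave -0.4292 for Plin2, -1.625 for Cidec, -1.491 for Pnpla2, -0.4516 for Lipe and -0.326 for G0s2. With USP7-si replicate 4 left out it gave -0.4782 for Plin1, -0.06835 for Plin2, -0.4508 for Cidec, -0.4666 for Pnpla2, -0.02199 for Lipe and -0.05505 for G0s2. Except for the turns under equal spread, which multiplies the ratios of each array, the cause was not tested.

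The titles give the groups the same replicate numbers, but same-numbered arrays correlated between -0.291 and 0.307 and only 1 of 12 matched its own number best, so the numbers are not treated as a pairing. With the replicate block there were 1715, 37 and 3353 called probes and 1, 0 and 7 called genes; Pnpla2 in TIP60-si versus control-si had an adjusted p of 0.0544. Of 540 ratios over the reference under other settings, 496 moved by less than 1 SD, 44 by more and 0 changed sign. Many of these could not move: leaving out an array changes only the ratios of its own group, and leaving out dim probes changes none. Scaling multiplies by positive factors, so it could not turn the sign of a gene above 0 on every array. The count is therefore no measure of robustness. A slide or scan date as a block was not run, as none was found in the files used here. Dim probes limit Bscl2, Lipe and Mgll to 1 or 2 informative probes each.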
